A study of Mus musculus with 6 samples.

Results

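The expression of 10 neural crest state genes was followed in mouse melanoma: Ngfr, Gfra2, L1cam, Aqp1, Nes, Sox9, Sox2, Tfap2a, Tfap2b and Foxd3. They were chosen by symbol, and all 10 are among the 23940 genes in the deposited table. RNA was sequenced from the CD45-negative (non-leukocyte) fraction of 6 YUMM1.7 tumours carried by C57BL/6 mice: 3 residual tumours on BRAF inhibitor (on BRAFi, tumours 1 to 3) and 3 tumours before treatment (pre-treatment, tumours 1 to 3). YUMM1.7 is a single cultured line from a Braf-mutant mouse melanoma, so that mutation was present in the tumour cells of both groups. Which inhibitor was used, at which dose and for how long is not stated in the labels, nor is whether any tumours shared a mouse, so the p-values reflect only how far these tumours differ among themselves.

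The neural crest is an embryonic cell population that leaves the border of the neural plate and gives rise to melanocytes, Schwann cells, peripheral neurons and parts of the face. Its identity is set by transcription factors of the AP-2, FOXD, SOX and PAX families, and many of them stay in use in the melanocyte lineage. Melanoma cells can return to a state that resembles these precursors, and in human melanoma under BRAF or MEK inhibitors that state is known by the receptor NGFR, the water channel AQP1 and the co-receptor GFRA2.

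On BRAFi, Aqp1 fell, Tfap2b rose and no other gene of the set passed the test. Aqp1, by far the most abundant of the set, averaged 144.5 ± 23.2 FPKM in residual tumours and 303.5 ± 20.3 FPKM in pre-treatment tumours (SD, n = 3 each), where FPKM is the number of fragments per kilobase of transcript, scaled to the mapped fragments of the library. Tfap2b averaged 32.5 ± 5.25 FPKM in residual tumours and 19.7 ± 1.78 FPKM in pre-treatment tumours. Of the receptors that mark the neural crest state, Ngfr and L1cam were low in both groups. Gfra2 averaged 3.3 FPKM on BRAFi and 3.1 FPKM pre-treatment, and Foxd3 was at or near 0. Values were compared as log2(FPKM + 0.1) in limma's test across all 12075 genes with a mean of at least 1 FPKM, and a call needs a Benjamini-Hochberg adjusted p under 0.05. Of the 10 genes 7 reached that level and were tested. Of these 7, 1 rose, against 8.76% of all tested genes, and 1 fell, against 10.3%; in either direction that is 2 of 7, against 19.1%. The groups did not overlap in the same 2 genes, against 40.4% of all tested genes: the on-BRAFi values lay above in 1, against 20.9%, and below in 1, against 19.5%. The median log2 fold change of the 7 was -0.03, beside -0.01 over all tested genes.

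**Figure D1:**
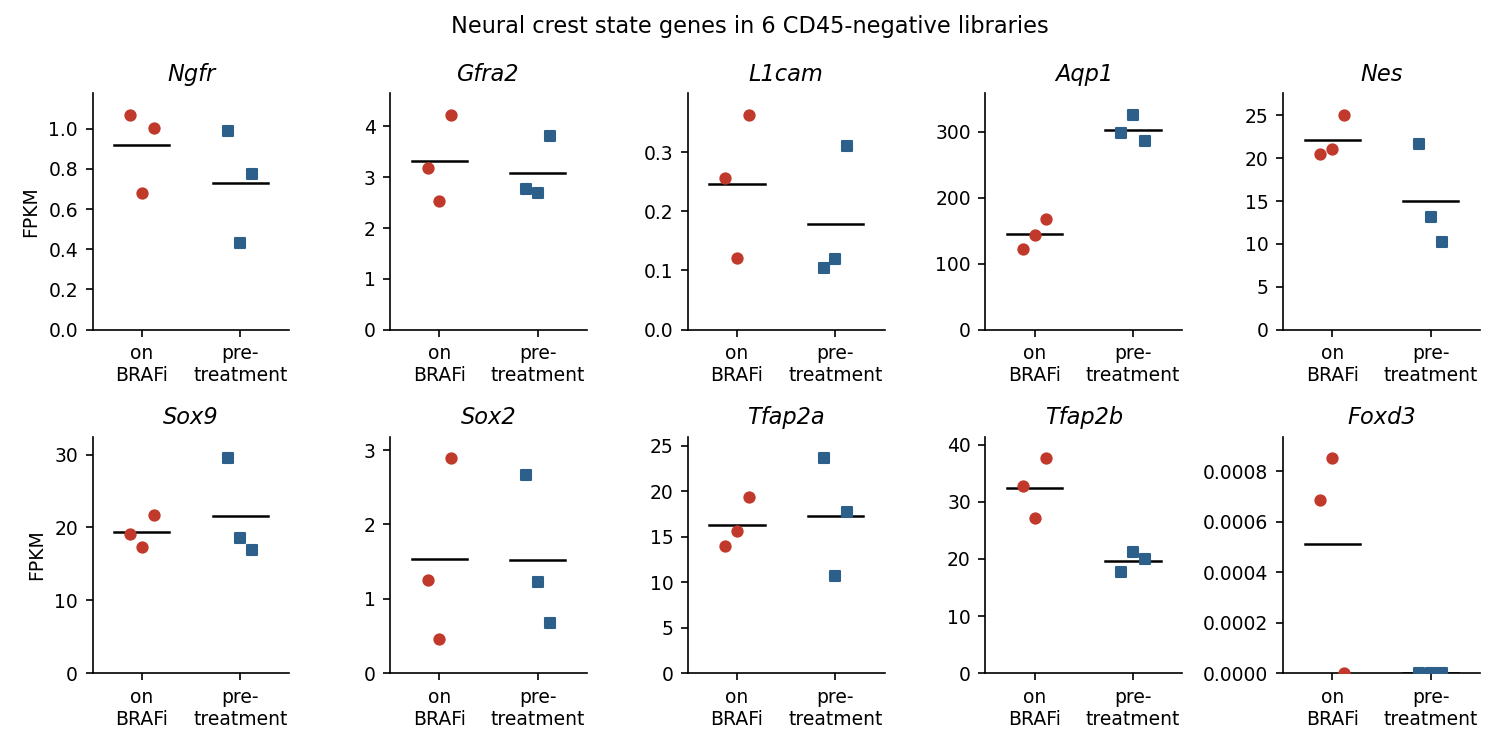
FPKM (linear vertical axis, a scale of its own for each gene) of the 10 neural crest state genes; circles are the 3 on-BRAFi tumours, squares the 3 pre-treatment tumours, each in the order 1 to 3 from left to right, and bars are group means. Groups separate in Aqp1, at 121.9 to 168.2 FPKM on BRAFi and 286.0 to 325.7 FPKM pre-treatment, and in Tfap2b, at 27.1 to 37.6 FPKM on BRAFi and 17.7 to 21.2 FPKM pre-treatment.

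A few features of the libraries bear on these values. The deposited totals ran from 414834 to 554684 FPKM on BRAFi and from 562041 to 921297 FPKM pre-treatment, with genes of short RNAs making up 23.0% to 40.4% of a library. When libraries were rescaled to a common total, the median log2 fold change of all genes shifted by 0.53, so directions are relative to the deposited scaling. On-BRAFi tumour 3, the library with the lowest total, had the highest value of its group in 8 of the 10 genes. Pre-treatment tumour 1, the library with the highest total, had the highest of its group in 5 of the 9 genes listed above 0 there. Both libraries also had the largest scaling factor of their group by the median of ratios over genes, 1.07 and 1.12. No share over all genes is given beside these counts, so they are not read as a trait of the set. The read depth of the libraries is unknown. In bulk RNA, fewer cells of a type and less RNA per cell cannot be told apart, and the CD45-negative sort leaves tumour cells mixed with fibroblasts and vessel cells.

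Defining genes of the melanocyte lineage were partly missing from the labelled melanomas. Tyr, which encodes the key enzyme of pigment synthesis, was present, at 5.90, 5.99 and 3.36 FPKM on BRAFi and at 3.02, 3.25 and 5.18 FPKM pre-treatment, and did not pass the test (limma, adjusted p = 0.440). The pigment cell exchanger gene Slc24a5 was also present, at 7.26 ± 0.588 FPKM on BRAFi and 7.35 ± 0.308 FPKM pre-treatment (limma, adjusted p = 0.957). By contrast Tyrp1, Dct and Mlana, of pigment synthesis and the melanosome, were listed at 0 in all 6 libraries, as was the melanosomal channel gene Oca2. Sox10, which encodes the SOX factor that drives melanocyte and Schwann cell fates, was at 0.0782, 0.00523 and 0.114 FPKM on BRAFi and at 0.0326, 0.0191 and 0.0218 FPKM pre-treatment. Other genes of the lineage were present: Pax3, an early crest and melanoblast factor, was between 32.7 and 41.6 FPKM on BRAFi and between 19.9 and 31.8 FPKM pre-treatment, and did not pass the test (limma, adjusted p = 0.191) although the groups did not overlap. Mitf, the master regulator of melanocytes, was at 21.6, 19.3 and 23.6 FPKM on BRAFi and at 4.43, 5.65 and 7.23 FPKM pre-treatment. The Mitf values did not overlap, and it rose by 1.90 ± 0.23 on the log2 scale (SE; limma, adjusted p = 0.00302). Of 20 genes of the lineage 6 were tested, 2 rose and 0 fell (limma; at an unadjusted p under 0.05, also 2 and 0), the other one being Gpnmb, a melanosomal glycoprotein gene, at 23.4 ± 3.02 FPKM on BRAFi and 6.00 ± 1.08 FPKM pre-treatment (adjusted p = 0.00209). Braf itself was at 0.454, 0.307 and 1.59 FPKM on BRAFi and at 3.46, 1.66 and 0.448 FPKM pre-treatment and did not pass (limma, adjusted p = 0.446).

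Among the surface receptors of the set, Ngfr and L1cam lay under the level for testing and Gfra2 lay above it. Ngfr encodes the low-affinity neurotrophin receptor, a classic marker of migrating crest cells. It was at 1.07, 0.682 and 1.01 FPKM on BRAFi and at 0.987, 0.431 and 0.773 FPKM pre-treatment. The groups overlapped, and with a mean of 0.825 FPKM over the 6 libraries Ngfr lay under the level for testing. Fitted without that limit, it had an estimate of 0.33 on the log2 scale (95% interval -0.77 to 1.44; limma, adjusted p = 0.663). In either group about 49.4% of all genes in the table had a lower mean than Ngfr.

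Gfra2, the co-receptor for the GDNF family ligand neurturin, was at 3.18, 2.54 and 4.23 FPKM on BRAFi and at 2.76, 2.70 and 3.81 FPKM pre-treatment. The highest value of each group came from its tumour 3, and the ranges lay almost on top of each other. Its log2 fold change was 0.09 with a 95% interval from -0.61 to 0.79 (limma, adjusted p = 0.867). L1cam encodes a neural adhesion molecule of the immunoglobulin superfamily. It was at 0.256, 0.121 and 0.363 FPKM on BRAFi and at 0.105, 0.120 and 0.310 FPKM pre-treatment, too low to be tested, and the groups overlapped. Without the limit on level, L1cam had an estimate of 0.33 on the log2 scale (95% interval -0.83 to 1.48; limma, adjusted p = 0.686). In the GENCODE annotation L1cam shares 100 of its 7347 exonic bases with Arhgap4, which averaged 0.220 FPKM on BRAFi and 0.129 FPKM pre-treatment.

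The ligands and partners of these receptors were measured too. Among 16 genes of the neurotrophin system, 8 were tested, 1 rose and 1 fell, with a median log2 fold change of 0.10. Bdnf, which encodes a neurotrophin that binds the Ngfr receptor, was at 7.11, 5.42 and 6.88 FPKM on BRAFi and at 15.9, 10.3 and 15.2 FPKM pre-treatment, and fell by 1.07 ± 0.24 (limma, adjusted p = 0.0232). The Bdnf values of the groups did not overlap. Its call was lost without any 1 library except pre-treatment tumour 2 (adjusted p from 0.0233 to 0.0701) and after rescaling to the same total. Ret, the kinase that Gfra2 recruits, was scarce and reached 0.144 FPKM on BRAFi and 0.0411 FPKM pre-treatment. Of 8 genes of the GDNF system only Pspn, which encodes persephin, was tested, and it did not pass (limma, adjusted p = 0.366).

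Of 11 relatives and partners of L1cam, 6 were tested, 2 rose and 1 fell, with a median log2 fold change of 0.25. Ank2, an ankyrin that ties L1 family proteins to the spectrin skeleton, averaged 16.5 ± 2.90 FPKM on BRAFi and 4.22 ± 0.108 FPKM pre-treatment (limma, adjusted p = 0.00199). Nrp1, the semaphorin co-receptor with which L1 associates, averaged 87.7 ± 13.1 FPKM on BRAFi and 28.9 ± 11.3 FPKM pre-treatment (limma, adjusted p = 0.0159). Its ligand gene Sema3a averaged 62.2 ± 10.4 FPKM on BRAFi and 112.4 ± 3.00 FPKM pre-treatment (limma, adjusted p = 0.0155). Calls for Nrp1 were lost without on-BRAFi tumour 1 or 3 (adjusted p up to 0.0598), and those for Sema3a without on-BRAFi tumour 1 or 3 or pre-treatment tumour 2 (up to 0.0671) and after rescaling to the same total. In all, Sema3a kept its call in 10 of 17 alternatives. Nrp1 is also a gene of vessels, and 8 of 12 tested endothelial markers rose; the part of vessel cells in the Nrp1 value was not tested.

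Aqp1 encodes aquaporin-1, a membrane water channel of red cells, capillary endothelium and several epithelia, which also marks the neural-crest-like melanoma state. It was at 121.9, 143.3 and 168.2 FPKM on BRAFi and at 298.7, 325.7 and 286.0 FPKM pre-treatment. All 3 residual tumours lay below all 3 pre-treatment tumours, with a gap wider than the range within either group. The log2 fold change was -1.08 ± 0.18 (SE), with a 95% interval from -1.50 to -0.66 (limma, adjusted p = 0.00828), and the mean on BRAFi was 0.476 times that before treatment. Aqp1 passed whichever library was left out (adjusted p from 0.0160 to 0.0384). It did not pass after rescaling to the same total (log2 fold change -0.53, adjusted p = 0.219), after the same with short RNAs left out (-0.48, adjusted p = 0.101) or with quantile normalization (-0.59, adjusted p = 0.0914). Its adjusted p ran from 0.00437 to 0.219 over all alternatives. Measured from the median of all genes, its change was -1.07 as deposited and -0.62 with quantile normalization. After rescaling to the same total it was -1.06, which adds no support, since that rescaling shifts the gene and the median almost alike.

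Even in residual tumours 98.3% of all genes in the table had a lower mean than Aqp1, against 98.9% in pre-treatment tumours. None of the 10 other aquaporin genes came near it: Aqp7, the only one tested, averaged 2.06 ± 0.683 FPKM on BRAFi and 0.959 ± 0.575 FPKM pre-treatment and did not pass (limma, adjusted p = 0.193), and 5 were listed at 0 in all libraries. Endothelial and red cells are known for Aqp1. Of 12 tested endothelial markers 8 rose and 0 fell, and of 6 tested erythroid genes 0 passed (limma). At an unadjusted p under 0.05 in limma, 9 endothelial markers were higher and 0 lower, and 0 erythroid genes either way. Erythroid values varied widely among the on-BRAFi tumours, so their count says little. The part of these cells in the Aqp1 values was not tested. Summed levels of 15 endothelial markers were 106 to 164 FPKM on BRAFi and 49.4 to 63.2 FPKM pre-treatment, and those of 8 erythroid genes were 123 to 2060 FPKM on BRAFi and 132 to 250 FPKM pre-treatment. Eng, the most abundant endothelial marker, averaged 23.8 ± 4.06 FPKM on BRAFi and 22.6 ± 7.85 FPKM pre-treatment and did not pass (limma, adjusted p = 0.807). Pecam1 averaged 27.5 ± 4.21 FPKM on BRAFi and 9.40 ± 5.58 FPKM pre-treatment (limma, adjusted p = 0.0353). The Pecam1 call held in 8 of 17 alternatives. Cdh5, the endothelial junction cadherin, averaged 16.2 ± 4.87 FPKM on BRAFi and 5.34 ± 0.486 FPKM pre-treatment (limma, adjusted p = 0.00783).

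The 250 bases before the RefSeq start of Aqp1 and Tfap2b, the pair of genes that passed, are shown because AP-2 factors are members of the set and bind the letters GCCNNNGGC. Sequences are from RefSeq in build GRCm38.p6, read 5′ to 3′ towards the start; the deposited values were made on mm9, so these positions are not those of the authors' alignment. Capitals mark a match, on either strand, to the AP-2 letters, the AP-1 letters TGANTCA, the MITF E-boxes CACGTG or CATGTG, or the SOX letters ACAAAG or ACAATG.
Aqp1, chr6:55336049-55336298, plus strand: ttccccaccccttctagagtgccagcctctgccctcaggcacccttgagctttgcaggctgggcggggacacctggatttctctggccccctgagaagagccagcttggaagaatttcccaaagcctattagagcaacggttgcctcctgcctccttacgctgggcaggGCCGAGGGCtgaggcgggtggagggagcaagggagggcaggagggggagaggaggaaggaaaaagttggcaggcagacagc
Tfap2b, chr1:19211804-19212053, plus strand: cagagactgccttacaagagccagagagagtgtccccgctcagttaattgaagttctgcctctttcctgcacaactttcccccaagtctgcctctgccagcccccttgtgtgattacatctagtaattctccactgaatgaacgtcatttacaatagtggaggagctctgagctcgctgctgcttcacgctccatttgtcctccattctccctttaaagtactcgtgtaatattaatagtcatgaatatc
The Aqp1 window held 1 match, to the AP-2 letters, starting 81 bases before the start, and it overlapped no other motif searched. The Tfap2b window held none. Over 32851 promoter windows of this length, 13.7% held the AP-2 letters, 6.75% the AP-1 letters, 17.6% an E-box and 25.2% a SOX match, so a match to the AP-2 letters is common. The base composition of the windows differed: Aqp1 had 62.0% G and C and 5 CpG sites, and Tfap2b had 46.4% and 5, against a median of 52.4% over all windows. Windows for 8 of the 10 genes were found by symbol, and those of Sox2, with 72.0% G and C and 27 CpG sites, and Ngfr, with 70.4% and 16, were richest in G and C.

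Nes encodes nestin, an intermediate filament protein of neural stem and crest cells and of young vessels. It was at 20.5, 21.1 and 25.1 FPKM on BRAFi and at 21.7, 13.2 and 10.2 FPKM pre-treatment. Pre-treatment tumour 1 lay within the residual range, and the other pre-treatment tumours lay below it. The log2 fold change was 0.63 ± 0.29, with a 95% interval from -0.06 to 1.32 (limma, adjusted p = 0.180). Without pre-treatment tumour 1 it was 0.92 and passed (adjusted p = 0.0396), and after rescaling to the same total it was 1.17 and passed (adjusted p = 0.0257); over all alternatives the adjusted p ran from 0.0103 to 0.369. Of 7 tested markers of pericytes and smooth muscle 3 rose and 1 fell beside it. The 11 genes of that list summed to 102 to 143 FPKM on BRAFi and 61.4 to 71.1 FPKM pre-treatment. The summed endothelial markers given with Aqp1 were also higher on BRAFi. The part of vessel cells in the Nes values was not tested.

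Among other intermediate filament genes, 5 of the 13 measured were tested, 3 fell, 0 rose, and the median log2 fold change was -1.90; at an unadjusted p under 0.05 in limma, 0 were higher and 5 lower. Vim, the vimentin with which nestin co-assembles, averaged 711.3 ± 29.6 FPKM on BRAFi and 1589 ± 95.5 FPKM pre-treatment (limma, adjusted p = 0.00486), and it lost the call after rescaling to the same total and with quantile normalization. The nuclear lamin genes Lmna and Lmnb1 fell by 0.98 ± 0.18 and 2.21 ± 0.31 (limma, adjusted p = 0.0130 and 0.00450), Lmna not after rescaling to the same total. The neurofilament genes Nefl and Nefm did not pass (limma, adjusted p = 0.0653 and 0.0620). They averaged 0.0498 and 0.596 FPKM on BRAFi and 2.00 and 2.85 FPKM pre-treatment, so they were tested only through their pre-treatment values. The list median is the value of Nefm, and the filter therefore shapes the median and the unadjusted counts. Among the untested genes only Des and Gfap did not overlap, and both were higher on BRAFi. They averaged 0.435 and 0.734 FPKM on BRAFi and 0.0311 and 0.0110 FPKM pre-treatment. The ratio of Nes to Vim within a library, which multiplying a library by a constant does not change though quantile normalization does, was 0.0297, 0.0283 and 0.0358 on BRAFi and 0.0134, 0.00788 and 0.00689 pre-treatment. That ratio was higher on BRAFi by 1.79 on the log2 scale, 3.45-fold, with no overlap. Vim passed the test and Nes did not, so the ratio in part restates the fall of Vim. The pair was chosen after its values were seen and is given without a test.

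**Figure D2:**
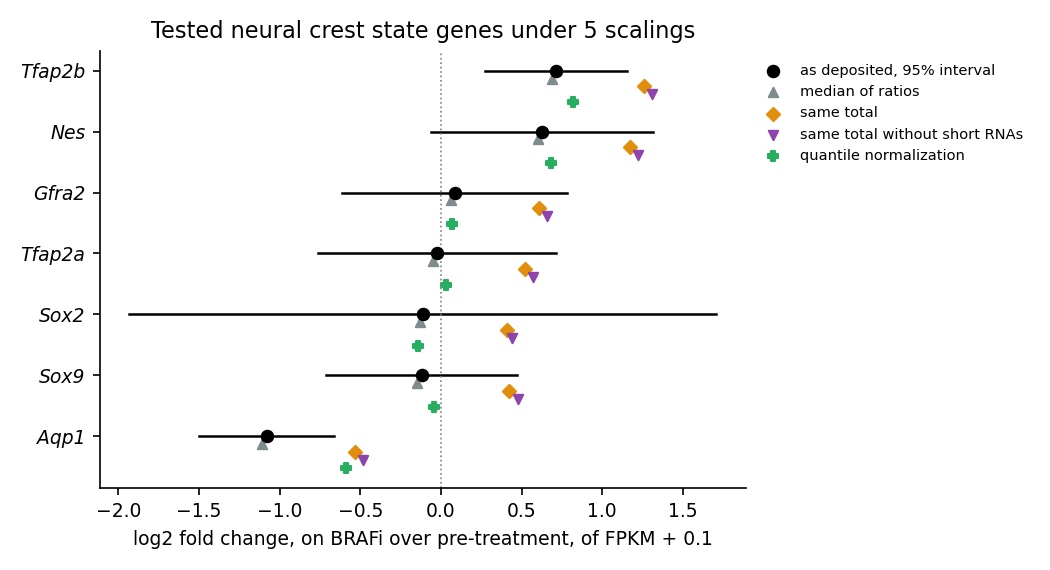
Log2 fold change, on BRAFi over pre-treatment, of the 7 tested genes: black points and lines are the estimate and 95% interval at the deposited scaling, and coloured marks are the estimates under 4 other scalings. Rescaling to the same total shifts every gene to the right, Aqp1 to -0.53 and Tfap2b to 1.26.

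The SOX factors of the set did not pass the test. Sox9, of the SOXE group that also holds Sox10, drives chondrocyte fate and takes part in crest formation. It was at 19.1, 17.3 and 21.8 FPKM on BRAFi and at 29.5, 18.6 and 16.9 FPKM pre-treatment, with pre-treatment tumour 1 above all others. Its log2 fold change was -0.12 with a 95% interval from -0.71 to 0.47 (limma, adjusted p = 0.768). Sox8, the remaining SOXE gene, was at most 0.191 FPKM on BRAFi and 0.0189 FPKM pre-treatment, so Sox9 was the abundant SOXE gene of these sorted cells in every library. The within-library ratio of Sox9 to Mitf was 0.887, 0.895 and 0.921 on BRAFi and 6.64, 3.28 and 2.33 pre-treatment, without overlap. It largely restates the rise of Mitf given above. This pair too was chosen after its values were seen and is not tested.

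Sox2, the stem cell and neural progenitor factor, had the widest interval of the 7 tested genes. It was at 1.25, 0.462 and 2.89 FPKM on BRAFi and at 2.67, 1.23 and 0.681 FPKM pre-treatment, and the residual range held all 3 pre-treatment values. The 95% interval of its log2 fold change ran from -1.93 to 1.71 around -0.11 (limma, adjusted p = 0.939), wide enough to hold large changes either way. Sox2 lies inside the non-coding gene Sox2ot, which shares no exonic base with it and averaged 0.582 FPKM on BRAFi and 0.787 FPKM pre-treatment. Of 16 other SOX genes 4 were tested, and Sox4, a factor of progenitors and migrating cells, fell by 1.16 ± 0.28 to 3.81 ± 0.748 FPKM on BRAFi, against 8.78 ± 2.69 FPKM pre-treatment (limma, adjusted p = 0.0319). The Sox4 call was lost without on-BRAFi tumour 1 or 2 or pre-treatment tumour 1 or 2 (adjusted p up to 0.106), and after rescaling to the same total. In all, Sox4 kept its call in 9 of 17 alternatives.

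The AP-2 factors are early specifiers of the crest, and Tfap2a is also needed by melanocytes, where it acts beside Mitf. Tfap2a was at 13.9, 15.7 and 19.4 FPKM on BRAFi and at 23.6, 10.7 and 17.7 FPKM pre-treatment. The residual values fell inside the wider pre-treatment range. Its log2 fold change was -0.03, with a 95% interval from -0.76 to 0.71 (limma, adjusted p = 0.967). In the GENCODE annotation its 4903 exonic bases share 265, 380 and 73 with the antisense genes Gm47061, Gm26688 and Gm47067. Since the libraries do not mark strand, reads from these genes cannot be told apart.

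Tfap2b, the paralogue expressed in neural crest and kidney, was at 32.7, 27.1 and 37.6 FPKM on BRAFi and at 17.7, 21.2 and 20.1 FPKM pre-treatment. Every residual tumour lay above every pre-treatment tumour. It rose by 0.71 ± 0.19 on the log2 scale, a mean 1.65 times as high on BRAFi, with a 95% interval from 0.27 to 1.15 (limma, adjusted p = 0.0393). The call was close to the threshold. It held without on-BRAFi tumour 2 (adjusted p = 0.0441) and was lost without on-BRAFi tumour 1 or 3 or any 1 pre-treatment tumour (adjusted p = 0.121, 0.110, 0.0954, 0.0771 and 0.0862 in turn), and with median of ratios scaling (0.0616), with no variance trend (0.0643) and with the tumour number as a replicate block (0.105), so that it held in 9 of 17 alternatives. Over all alternatives the adjusted p ran from 0.00818 to 0.121. Rescaling to the same total raised the log2 fold change to 1.26. With 92.2% of all genes lower on BRAFi and 87.0% pre-treatment, Tfap2b was the second most abundant of the set in residual tumours, where its values lay above those of the next gene, Nes. Below it on BRAFi came Nes, Sox9 and Tfap2a, then Gfra2, Sox2 and Ngfr, then L1cam and Foxd3; ranges of neighbours overlapped among Nes, Sox9 and Tfap2a and among Gfra2, Sox2 and Ngfr. In pre-treatment tumours Aqp1 was followed by Sox9, Tfap2b, Tfap2a and Nes, whose ranges overlapped with those of their neighbours, then by Gfra2, by Sox2 and Ngfr, which overlapped, and by L1cam and Foxd3.

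Other AP-2 genes were scarce: Tfap2c reached 0.0431 FPKM on BRAFi and 0.249 FPKM pre-treatment, and Tfap2d was listed at 0 throughout. Kctd1, which encodes a repressor of AP-2 activity, was at 15.1, 12.6 and 11.4 FPKM on BRAFi and at 3.32, 5.98 and 2.36 FPKM pre-treatment. It rose by 1.81 ± 0.35 (limma, adjusted p = 0.0141), the only one of 3 tested genes among 9 AP-2 and FOXD relatives to do so, and not without on-BRAFi tumour 1 (adjusted p = 0.0577). Kctd15, its close relative and also a repressor of AP-2, was between 7.42 and 8.42 FPKM on BRAFi and between 6.44 and 9.43 FPKM pre-treatment and did not pass (limma, adjusted p = 0.891). Foxd3, a factor of early crest that holds back the melanocyte fate, was listed at 0.000686, 0.00085 and 0 FPKM on BRAFi and at 0 in all 3 pre-treatment tumours. Values that small say only that hardly any fragment was assigned to it.

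Ratios between genes of the set within a library are given as a description, with no test, since the pairs were chosen after the values were seen. Aqp1 and Tfap2b are the gene that fell and the gene that rose, so the choice fixed the direction of their ratio. Aqp1 stood to Tfap2b at 3.73, 5.29 and 4.48 on BRAFi and at 16.9, 15.4 and 14.3 pre-treatment, a ratio 3.47 times as high before treatment. Tfap2b to Sox9 was 1.71, 1.57 and 1.73 on BRAFi and 0.601, 1.14 and 1.19 pre-treatment, and Aqp1 to Tfap2a was 8.76, 9.15 and 8.68 on BRAFi and 12.7, 30.5 and 16.2 pre-treatment. In these 3 pairs the groups did not overlap. Sox9 and Tfap2a did not pass, so the last 2 of these ratios largely restate the calls of Tfap2b and Aqp1. Tfap2b to Tfap2a was 2.35, 1.73 and 1.94 on BRAFi and 0.751, 1.98 and 1.14 pre-treatment, where pre-treatment tumour 2 lay within the residual range. Such ratios do not show which gene of a pair moved.

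**Figure D3:**
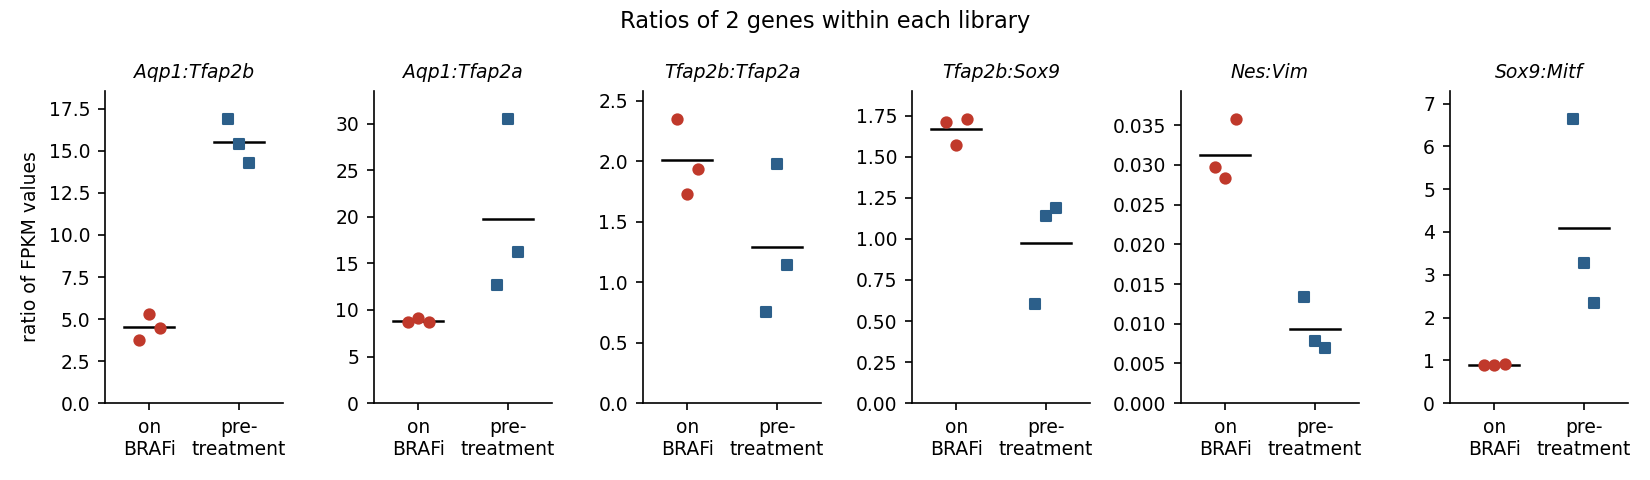
Ratio of the FPKM values of 2 genes in the same library (linear axes from 0, a scale of its own for each pair); circles are on-BRAFi tumours, squares pre-treatment tumours, bars group means. Aqp1:Tfap2b lies at 3.73 to 5.29 on BRAFi and 14.3 to 16.9 pre-treatment, and Tfap2b:Tfap2a is the pair whose groups overlap.

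Beyond the set, 33 other neural crest genes were listed. Of these 18 were tested, 1 rose and 1 fell, with a median log2 fold change of 0.27; at an unadjusted p under 0.05 in limma, 3 were higher and 3 lower. Id2, an inhibitor of basic helix-loop-helix factors, was at 51.3, 51.9 and 46.4 FPKM on BRAFi and at 14.5, 13.6 and 10.9 FPKM pre-treatment, and rose by 1.94 ± 0.18 (limma, adjusted p = 0.00138). It passed whichever library was left out. Crabp1, a retinoic acid binding protein of migrating crest, was abundant, at 503.5, 380.2 and 395.8 FPKM on BRAFi and at 988.5, 772.4 and 599.0 FPKM pre-treatment. It fell by 0.86 ± 0.24 (limma, adjusted p = 0.0460), at the edge of the threshold: the call was kept without pre-treatment tumour 3 (0.0364), was lost without any other single library (up to 0.127), and was lost under each of the scalings to a common total and with quantile normalization (up to 0.678). In all, Crabp1 kept its call in 5 of 17 alternatives.

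A second list held 20 genes linked to neural-crest-like residual melanoma cells. Of 15 tested, 4 rose and 1 fell, with a median log2 fold change of 0.62. Syt11, a synaptotagmin of vesicle traffic, averaged 10.6 ± 0.671 FPKM on BRAFi and 3.57 ± 0.697 FPKM pre-treatment (limma, adjusted p = 0.00432). The ion channel genes Tmem176a and Tmem176b averaged 4.07 ± 0.435 and 10.1 ± 4.50 FPKM on BRAFi, against 0.757 ± 0.218 and 2.32 ± 0.432 FPKM pre-treatment (limma, adjusted p = 0.00676 and 0.00987). Tshz2, a zinc finger gene named here after its values were seen, averaged 2.96 ± 0.669 FPKM on BRAFi and 0.368 ± 0.317 FPKM pre-treatment (limma, adjusted p = 0.0225), and lost its call without any 1 on-BRAFi tumour or pre-treatment tumour 3 (up to 0.106). In all, Tshz2 kept its call in 11 of 16 alternatives. The gene that fell was Anxa1, which encodes the phospholipid-binding annexin A1, at 896.2 ± 167.9 FPKM on BRAFi and 2159 ± 285.1 FPKM pre-treatment (limma, adjusted p = 0.00905), though not with quantile normalization (adjusted p = 0.475, the highest of its alternatives, with 0.00497 the lowest). Rxrg, the retinoid receptor known as a regulator of the state in human melanoma, was at 3.26, 3.30 and 3.67 FPKM on BRAFi and at 4.39, 3.60 and 4.16 FPKM pre-treatment, and did not pass (limma, adjusted p = 0.471).

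**Figure D4:**
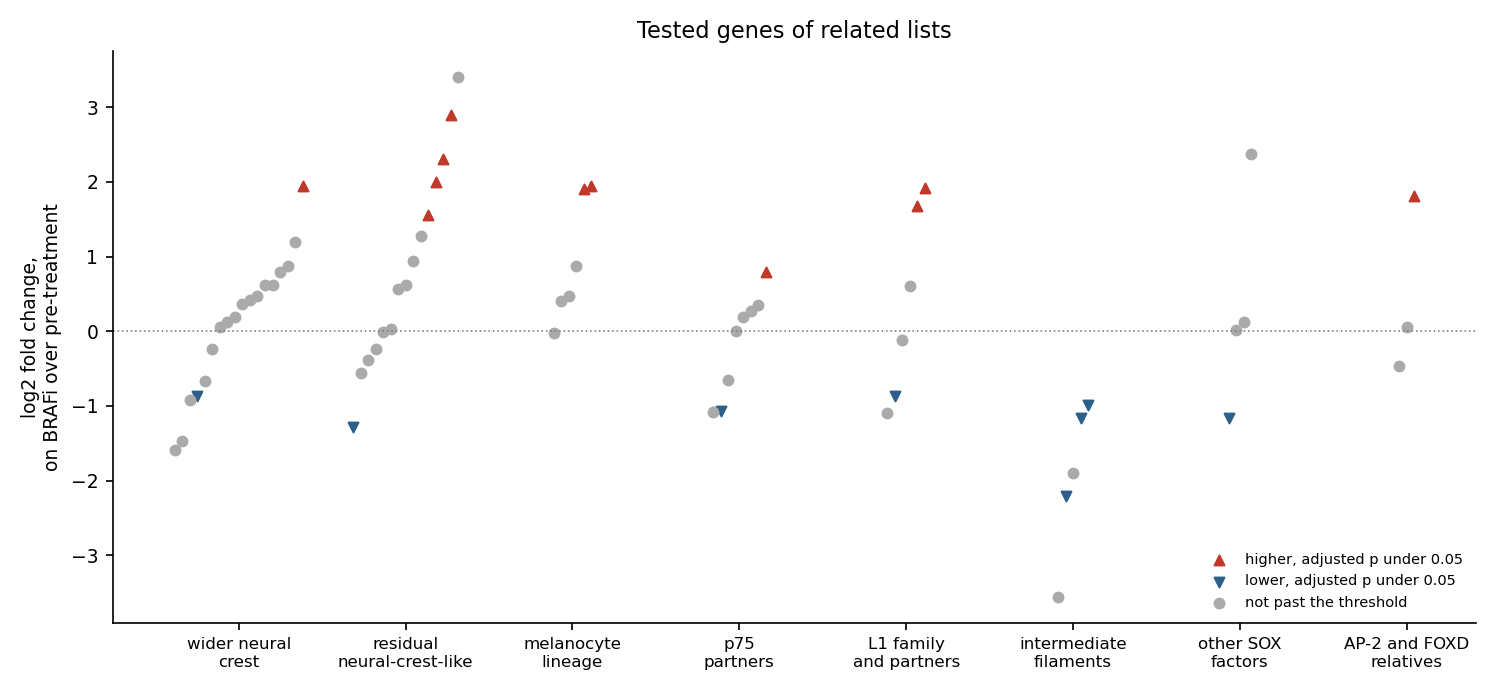
Log2 fold change, on BRAFi over pre-treatment, of the tested genes of 8 related lists, sorted within each; triangles pointing up rose, triangles pointing down fell, and grey circles did not pass (limma, adjusted p under 0.05). Most points are grey, and the 3 called intermediate filament genes all lie below 0.

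Markers of other cells moved with the groups. Of 9 tested Schwann cell markers 3 rose, and the list summed to 130 to 209 FPKM on BRAFi and 51.8 to 68.5 FPKM pre-treatment. One of the genes that rose was Pmp22, a gene of many tissues, at 108.0 ± 24.03 FPKM on BRAFi and 22.1 ± 6.65 FPKM pre-treatment. Ngfr had its highest residual value in on-BRAFi tumour 1, and Gfra2 and L1cam theirs in tumour 3. Of 13 fibroblast markers 9 rose, with sums of 9290 to 10000 FPKM on BRAFi and 1300 to 1800 FPKM pre-treatment. The keratinocyte and gland markers, whose cells express Tfap2a and Sox9, summed to at most 0.619 FPKM on BRAFi and 0.607 FPKM pre-treatment, and 6 of the 13 were listed at 0 in all libraries. Ptprc, which encodes CD45, was at 0.118 to 1.102 FPKM on BRAFi and 0.609 to 2.18 FPKM pre-treatment. Of 7 tested leukocyte markers, 2 of skeletal muscle and 6 erythroid ones, 0 passed (limma, 0 also at an unadjusted p under 0.05). Both tested adipocyte markers, Fabp4 and Lpl, rose, and the list of 8 summed to 21.7 to 181 FPKM on BRAFi and 3.11 to 3.38 FPKM pre-treatment. Fabp4 alone was at 18.0 to 157.3 FPKM on BRAFi. The adipocyte genes Adipoq and Plin1 were at most 0.323 and 0.0488 FPKM on BRAFi and at 0 pre-treatment, too low to be tested. Whether the number of adipocytes differed was not tested. Of 15 early genes that cell dissociation induces, 1 fell, Zfp36, at 162.1 ± 26.8 FPKM on BRAFi and 279.1 ± 44.8 FPKM pre-treatment, and 0 rose (limma; at an unadjusted p under 0.05, 1 higher and 5 lower). The Zfp36 call (adjusted p = 0.0386) held in 5 of 17 alternatives (0.0312 to 0.547), and among the single libraries left out only without pre-treatment tumour 2 (0.0447); it was lost after rescaling to the same total (0.547). The part of Schwann cells, vessel cells and fibroblasts in the values of the 10 genes was not tested.

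**Figure D5:**
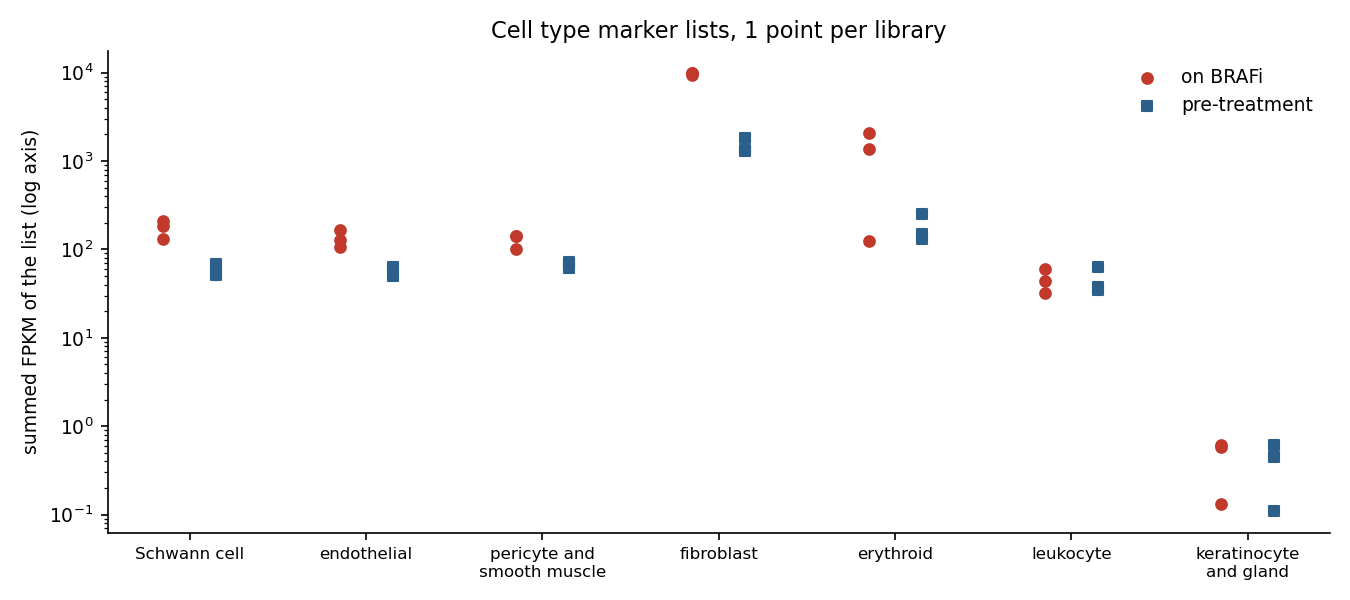
Summed FPKM of 7 cell type marker lists (log axis), 1 point per library; circles are on-BRAFi tumours, squares pre-treatment tumours. Fibroblast, endothelial, pericyte and Schwann cell sums are higher on BRAFi without overlap, leukocyte and erythroid sums overlap, and keratinocyte and gland sums stay below 1 FPKM.

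Across the 6 libraries, the genes whose profiles lay nearest to the pair that passed were ranked among 10728 tested genes, by the Euclidean distance between log2(FPKM + 0.1) profiles centred on their own means. Nearest to Aqp1 were Stip1 at a distance of 0.116, Bola3 at 0.224 and Eif2a at 0.229. Stip1, a co-chaperone gene, averaged 27.2 ± 4.29 FPKM on BRAFi and 58.6 ± 4.42 FPKM pre-treatment. Nearest to Tfap2b were Zfp110 at 0.209, Itm2b at 0.215 and Nek1 at 0.223. These distances rest on 6 libraries that fall into 2 groups, and every gene with a like difference between the groups is near by this measure.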

How the data were processed

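Unstranded poly(A) TruSeq libraries were sequenced, per the labels' protocols; the labels name both single-end and paired-end reads. The authors deposited 1 table of FPKM, and the submitters' processing notes name mm9, TopHat2, TopHat, Cuffnorm and Cuffdiff without versions; the annotation is not stated. Of 23940 genes, 5880 were at 0 in all libraries. No counts are given, so depth is unknown and no count model was used.

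Genes with a mean of at least 1 FPKM (12075) were fitted as log2(FPKM + 0.1) with limma 3.58.1 in R 4.3.3 (eBayes with trend, group as the only term, two-sided), adjusted by Benjamini-Hochberg over all tested genes, threshold 0.05. On this scale the change of low genes is understated. The fit was tested on simulated data. Alternatives were pseudocounts of 1 and 0.01, other filters and scalings, no trend, array weights, a block for the tumour number, and omission of each library; within-library ratios were added after seeing the data. The 10 genes and the 20 other lists were chosen with earlier results of these data known. Named by rule were all 10 genes, up to 4 called genes of smallest p per related list, otherwise its 3 most abundant, up to 3 abundant genes and those at 0 per marker list, Sox10, Mitf, Braf, Ptprc and the 3 nearest profiles; other genes were chosen after their values were seen. Bex3 and Adgre1 were matched under older symbols. Overlaps are from GENCODE. Some genes of these lists are not reported here.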

Additional observations from a re-analysis of the deposited data

How the results depend on the processing

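As deposited, 2307 of 12075 genes changed, 1058 higher and 1249 lower, and 1 neural crest state gene was higher and 1 lower. Rescaling to the same total gave 2007 higher and 518 lower genes, and the same without short RNAs gave 4473 changed, 3792 higher and 681 lower. Of the neural crest state genes 2 were then higher and 0 lower under either scaling (limma; at an unadjusted p under 0.05, 0 lower with all genes in the total and 1 without short RNAs). Median of ratios and the fit without a trend left 1 changed and 0 higher (unadjusted p under 0.05, 2 and 1 higher), and quantile normalization left 1 changed and 0 lower (unadjusted, 1 lower). Leaving out 1 library gave 1230 to 1698 changed genes, 498 to 801 higher and 732 to 943 lower, and 1 to 2 changed neural crest state genes, 0 to 1 higher and 1 lower each time (unadjusted, 1 or 2 higher). The tumour number as a replicate block gave 1237 changed genes, 500 higher and 737 lower, and 1 changed neural crest state gene, with 0 higher (unadjusted, 1 higher). Deviations of same-numbered tumours from their group means were correlated at r = -0.03, 0.012 and -0.09. For tumours of unlike number r ran from -0.087 to 0.115. With so few tumours these values cannot show whether same-numbered tumours shared a mouse or anything else.

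Estimates near 0 changed sign. After rescaling to the same total Sox9, Sox2 and Tfap2a were at 0.42, 0.41 and 0.52, and without short RNAs at 0.48, 0.44 and 0.57. With quantile normalization Tfap2a was at 0.03, and with array weights Sox2 and Tfap2a were at 0.13 and 0.14. Without 1 library Sox9 ran from -0.28 to 0.12, Sox2 from -0.70 to 0.50, Tfap2a from -0.33 to 0.23 and Gfra2 from -0.10 to 0.26. None of these passed the test under those settings. The cause was not tested, beyond the shift of the median of all genes by 0.53 and 0.58 under the 2 totals. The within-library ratios kept their direction without any 1 library. For every pair but Tfap2b to Tfap2a the lack of overlap fixed that outcome in advance, so it adds no support. Without counts, depth sets no stated limit; Ngfr, L1cam and Foxd3 were too low to be tested.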
